A study of Homo sapiens with 12 samples.

Results

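The genes described here are TP63, MDM2 and MDM4, the members of the p53 family and of its MDM regulators that were looked up by symbol in the deposited gene table, with the row of highest mean kept for each symbol. Each of the 3 symbols had 1 row, out of 22564 rows in all. The table comes from total RNA-seq of the established human lung adenocarcinoma line A549 in 2 groups of 6 libraries each: cells transfected with small interfering RNA against YTHDC1 (siYTHDC1), the nuclear reader of N6-methyladenosine (m6A) on RNA, and cells transfected with a scrambled control (siSCR). Both groups received siRNA at 40 nM and were kept for 48 to 72 h, and no other agent or treatment is named for these libraries. The values given below are the authors' mean normalized counts over all 12 libraries, siYTHDC1 and siSCR together, so they describe how strongly each gene was expressed in these cells and not how it differed between the groups. They carry no replicate error, and the table used here does not give the realised depth of each library.

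The p53 family comprises p53, p63 and p73, transcription factors with closely related DNA-binding domains that recognise similar response elements. MDM2 is a RING-type ubiquitin ligase that binds the activation domain of p53 and marks it for degradation, and MDM4, also known as MDMX, is a related protein that forms a heterodimer with MDM2 and inhibits p53 with little ligase activity of its own. MDM2 is also a target gene of p53, which closes a negative feedback loop, and Nutlin-3a, the compound used in the study's reporter screen, acts by blocking the contact between MDM2 and p53. TP63 encodes p63, best known as a lineage factor of basal cells in stratified and airway epithelia, and is transcribed from an upstream and an internal promoter that give proteins with or without the N-terminal activation domain.

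MDM2 is known to be induced by p53 through an internal promoter, and the start regions of the members were described by the element that this family binds. The search rule was set after the MDM2 sequence was seen, so the match there and the share of windows with a match are descriptions and no test. A half-site has 10 bases, and a pair was counted where 2 half-sites followed each other directly, each with C at position 4 and G at position 7 and at most 1 mismatch elsewhere (positions counted from 1 at the 5′ end). The half-site is its own reverse complement in form, so 1 pass covers both strands. Among RefSeq start regions (250 bases before to 50 after each start), 55 of 35116 windows, or 0.157%, held such a pair. MDM2 has 4 windows in that table, and both around its internal start held a pair while both around its first start held 0. The window of the internal start, 840 bases downstream of the annotated gene start, is shown because it holds the only pair found among the members, given in capitals, and lies at chr12:69202547-69202846 on the plus strand of GRCh37 (sequence from RefSeq on GRCh38.p14, found once on that chromosome of GRCh37):

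MDM2 internal start: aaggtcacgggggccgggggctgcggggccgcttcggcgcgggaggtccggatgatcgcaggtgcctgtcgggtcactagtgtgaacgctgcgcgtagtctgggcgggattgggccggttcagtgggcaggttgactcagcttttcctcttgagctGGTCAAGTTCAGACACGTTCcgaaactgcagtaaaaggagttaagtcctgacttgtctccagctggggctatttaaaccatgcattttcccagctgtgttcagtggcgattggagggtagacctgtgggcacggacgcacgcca

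The pair starts 94 bases before the internal start and has 2 mismatches in its 20 bases. Its window held 3 half-sites in all under this rule, and elements without C at position 4 or G at position 7 were not counted. The single windows of TP63 and MDM4, each at the first start of its gene, held 0 pairs and 0 half-sites under the same rule. The internal promoter of TP63 had no window and was not searched. An exact half-site was present in 6.63% of all windows and in none of the members' windows. The motif GGGCGG, searched on both strands, was found in 45.0% of all windows, in each of the 4 MDM2 windows, and in neither the TP63 nor the MDM4 window. The windows also differed in base composition, with 74.7% G and C at the first MDM2 start, 59.7% at its internal start, 52.7% at MDM4 and 43.7% at TP63. A match describes these letters only, and binding was not measured in these libraries.

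The 3 genes differ in architecture, which bears on how counts per gene can be compared. TP63 (ENSG00000073282.8) lies on chromosome 3 from 189349178 to 189615065 on the plus strand of GRCh37 and spans 265888 bases, of which 2.81% is exon. Its longest intron, between merged exons, measures 106162 bases. MDM2 (ENSG00000135679.17) lies on chromosome 12 from 69201957 to 69239324 on the plus strand and spans 37368 bases, of which 22.2% is exon. MDM4 (ENSG00000198625.8) lies on chromosome 1 from 204485507 to 204527248, also on the plus strand, and spans 41742 bases, of which 26.4% is exon. TP63 is thus the longest gene but has the shortest merged exons, 7479 bases against 8306 for MDM2 and 11008 for MDM4.

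**Figure D1:**
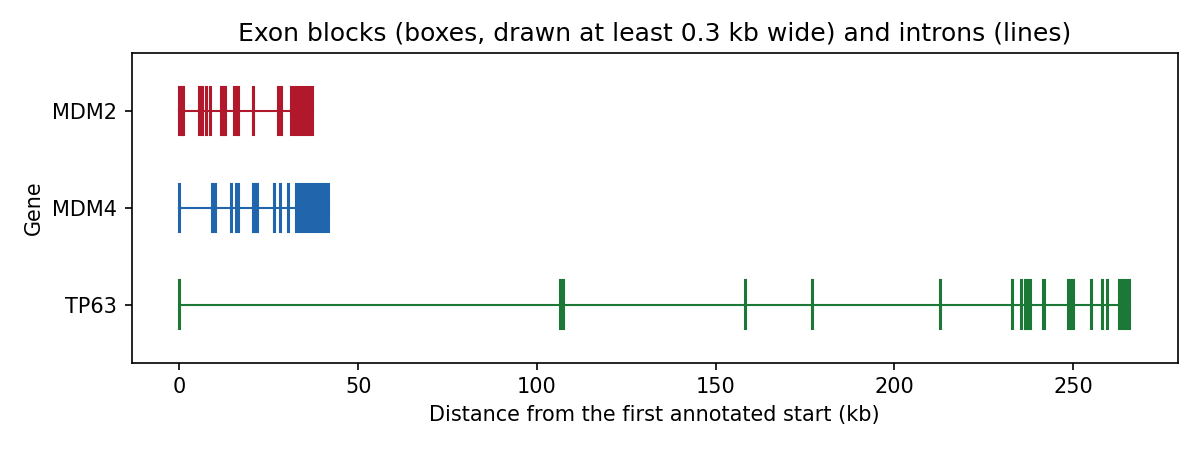
Exon blocks (boxes) and introns (lines) of MDM2, MDM4 and TP63 by distance from the first annotated start in kb (x axis), after merging the exons of all annotated transcripts. TP63 spreads 17 blocks over 265888 bases, while MDM2 and MDM4 hold 17 and 13 blocks within 37368 and 41742 bases.

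The annotated TP63 transcripts fall into 2 groups by where they start, with neighbouring starts that lie close together joined. The upstream group has 6 transcripts, 5 of them protein-coding, and the internal group has 8 transcripts, 7 of them protein-coding, starting 158270 bases further downstream. A count per gene sums both groups, so the forms of p63 with and without the activation domain cannot be told apart here. MDM2 has 36 annotated transcripts, 18 of them protein-coding, and MDM4 has 16, of which 11 are protein-coding. Separate start groups are not particular to TP63. Grouped in the same way, MDM4 has 2, of 13 and 3 transcripts, the second starting 21478 bases after the gene start. MDM2 has 3, of 32, 1 and 3 transcripts, with all 18 protein-coding ones in the first. The longest MDM2 transcript holds a 3′ untranslated region of 5695 bases and that of MDM4 one of 8438 bases, against 2774 bases in TP63.

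MDM2 was among the more strongly expressed genes of these cells. Its mean normalized count was 3420, which ranked 517th of 22564 rows and exceeded 97.7% of them. MDM4 followed with a mean normalized count of 2226, ranked 986th and above 95.6% of rows. TP63 had a mean normalized count of 104, ranked 10326th, against a median of 65.8 over all rows. Both MDM regulators stood in the upper tail of the table. The place of TP63 depended on the genes it was set against, since its mean exceeded 54.2% of all rows but 35.8% of those with a mean of at least 10 and 30.5% of protein-coding genes.

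Because longer transcripts collect more reads, levels were then divided by the length of the merged exons. The lengths come from GENCODE release 44, while the authors counted on an earlier release, and the effect of this difference on the levels per kb was not tested. MDM2 stood at a level of 412 normalized counts per kb, above 95.8% of the 21798 rows with an annotated length. MDM4 stood at 202 per kb, above 88.6%, and TP63 at 13.9 per kb, above 34.9%. The median over these rows was 32.2 per kb, with quartiles of 6.94 and 101. On this scale the level of MDM2 was 2.04 times that of MDM4 and 29.6 times that of TP63, and the level of MDM4 was 14.6 times that of TP63. The order MDM2, MDM4, TP63 was the same with the longest and with the median transcript length, and whether neighbours in it differ beyond the spread between libraries cannot be told from a pooled mean. With the median transcript length the level was 3670 per kb for MDM2, 635 for MDM4 and 59.3 for TP63, so that the ratio of MDM2 to MDM4 was 5.78 in place of 2.04 and that of MDM2 to TP63 was 61.9 in place of 29.6. With the longest transcript length the level of TP63 was 21.0 per kb.

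**Figure D2:**
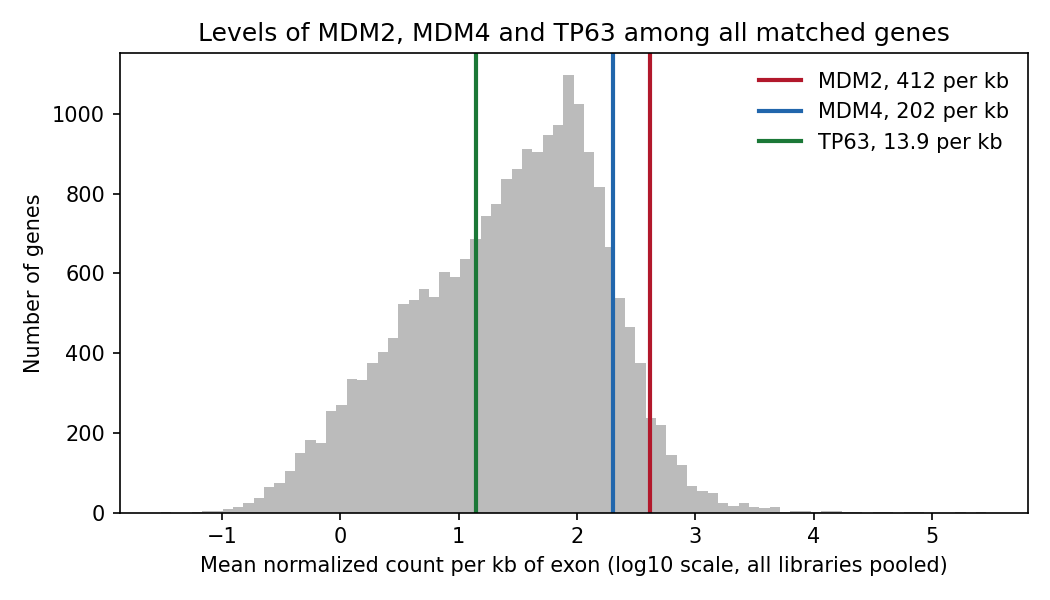
Number of genes (y axis) by the authors' mean normalized count per kb of merged exon on a log10 scale (x axis), all 12 libraries pooled, with vertical lines for the 3 genes. MDM2 (412 per kb) and MDM4 (202 per kb) lie in the upper tail, and TP63 (13.9 per kb) lies below the median of 32.2.

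Exons of MDM2 overlap those of other genes. For genes on the minus strand this matters where strand was not used in counting, a setting not given in the sources used here. MDM2 exons share 133 bases with those of CPM, which encodes carboxypeptidase M on the minus strand and had a mean normalized count of 145. A further 785 bases of MDM2 exons, 9.45% of their length, are shared with an unnamed long non-coding RNA on the minus strand (ENSG00000257181), whose mean normalized count was 3.6. Both lie far below the 3420 of MDM2, but the reads in the shared bases cannot be told from counts per gene. On the plus strand, 439 bases of MDM2 exons, 5.29%, are shared with an annotated processed pseudogene that had no row in the table used here. Strand cannot separate this overlap. No exon of TP63 or MDM4 was shared with another annotated gene. The longest exact run that the exons of MDM2 and MDM4 have in common measures 36 bases, and those of TP63 share runs of at most 17 bases with MDM2 and 29 with MDM4.

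The lineage markers around TP63 were read next. The cells carried epithelial keratins, with KRT18 at 4860 and KRT8 at 4010 normalized counts per kb, while EPCAM, a surface adhesion protein of epithelia, stood at 24.0 per kb. TP63 was the 1 basal marker of 3 with a row in the table used here, and the basal keratins KRT5 and KRT14 had none. The lowest mean normalized count of any row was 1.52. A gene without a row may thus be low or left out for another reason, and which holds was not tested. Of 4 alveolar type 2 markers, 1 had a row, the lipid transporter ABCA3 at 134 per kb, and SFTPB, SFTPC and NKX2-1 had none. Of 10 markers of blood, endothelial and fibroblast cells, 5 had a row, the highest being COL1A1 at 21.5 per kb. The part of such cells or of a basal state in the TP63 level was not tested.

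Epithelial genes linked to p63 spanned the widest range of the pathway lists. Of 11 listed genes 8 had a row, with levels between 0.877 and 898 per kb and a median of 125. Well above TP63 were SFN, the 14-3-3 sigma protein (898 per kb), PERP, a desmosomal protein (677 per kb), and ITGB4, the integrin beta-4 of hemidesmosomes (361 per kb). At the other end stood ZNF750, a regulator of epidermal differentiation (0.877 per kb), and COL17A1, a collagen of hemidesmosomes (3.46 per kb). CLCA2 had no row, like KRT5 and KRT14 above. In all, 6 of the 8 measured genes stood above TP63 and 2 below it. TP63 exceeded 34.9% of all matched rows and 25.8% of protein-coding genes, so most genes at large also lay above it.

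Ligases and deubiquitinases acting on p53, p63 or the MDM proteins were expressed at levels up to that of MDM2. All 13 had a row, with a median of 173 per kb. The highest was HUWE1, a large HECT-type ligase of p53, at 404 per kb, followed by USP10 at 374 per kb and USP7 at 306 per kb, both deubiquitinases that stabilise p53. USP7 also removes ubiquitin from MDM2. The lowest were USP2 at 2.48 per kb and RCHY1, the ligase PIRH2, at 32.4 per kb. None of the 13 exceeded MDM2, with HUWE1 close to its 412 per kb, and 5 exceeded MDM4. MDM2 exceeded 95.8% of all matched rows and MDM4 88.6%, or 94.0% and 83.7% of protein-coding genes. Counts of listed genes above a member rest on merged exon lengths, and other lengths were not tried for the listed genes.

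Proteins that bind and restrain MDM2 formed the highest list. Of 6 listed, 5 had a row, with levels from 344 to 1180 per kb and a median of 770. NPM1, the nucleolar protein nucleophosmin, stood at 1180 per kb, and the ribosomal proteins RPL23 and RPL5 at 776 and 770 per kb. The lowest were GNL3, the nucleolar GTPase nucleostemin, at 344 per kb and RPL11 at 460 per kb. Levels of NPM1 and of ribosomal protein genes are uncertain, because processed pseudogenes can share their reads. CDKN2A, whose alternative reading frame product ARF inhibits MDM2, had no row in the table used here. Of the 5 measured binders, 4 exceeded MDM2 and 5 exceeded MDM4. By comparison, MDM2 and MDM4 exceeded 94.0% and 83.7% of protein-coding genes.

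Kinases that signal to p53 and the MDM proteins, with 1 phosphatase that opposes them, had a median of 161 per kb over 10 genes. PRKDC, the catalytic subunit of DNA-dependent protein kinase, stood at 528 per kb and was the 1 gene of this list above MDM2. The tyrosine kinase ABL1 and the kinase HIPK2 followed at 344 and 332 per kb. The lowest were PPM1D, the phosphatase WIP1, at 38.2 per kb and the checkpoint kinase CHEK2 at 47.6 per kb. All 10 stood above TP63 and 4 above MDM4. Among protein-coding genes, MDM2 exceeded 94.0%, MDM4 83.7% and TP63 25.8%.

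Cofactors were lower, with a median of 74.6 per kb over 6 genes. The acetyltransferases EP300 and CREBBP stood at 183 and 128 per kb and the bromodomain protein BRD7 at 110 per kb, while PPP1R13B, the p53-binding protein ASPP1, stood at 24.0 per kb. The family member TP73 was the lowest of this list at 0.495 per kb, a mean normalized count of 3.35. None of the 6 exceeded MDM4, and TP73 was the 1 gene of the list below TP63. For scale, MDM4 exceeded 83.7% of protein-coding genes and TP63 25.8%.

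Target genes of p53 were placed on the same scale. All 13 had a row, with levels from 20.9 to 504 per kb and a median of 139. BAX, a pore-forming protein of apoptosis, stood at 504 per kb, CDKN1A, which encodes p21, at 366 per kb and the secreted factor GDF15 at 349 per kb. SESN1 (20.9 per kb) and BBC3, which encodes the apoptotic protein PUMA (28.4 per kb), were the lowest. MDM2 exceeded 12 of these 13 target genes, and all 13 stood above TP63. The place of MDM2 here was near its place among all protein-coding genes, of which it exceeded 94.0%, while TP63 exceeded 25.8%.

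**Figure D3:**
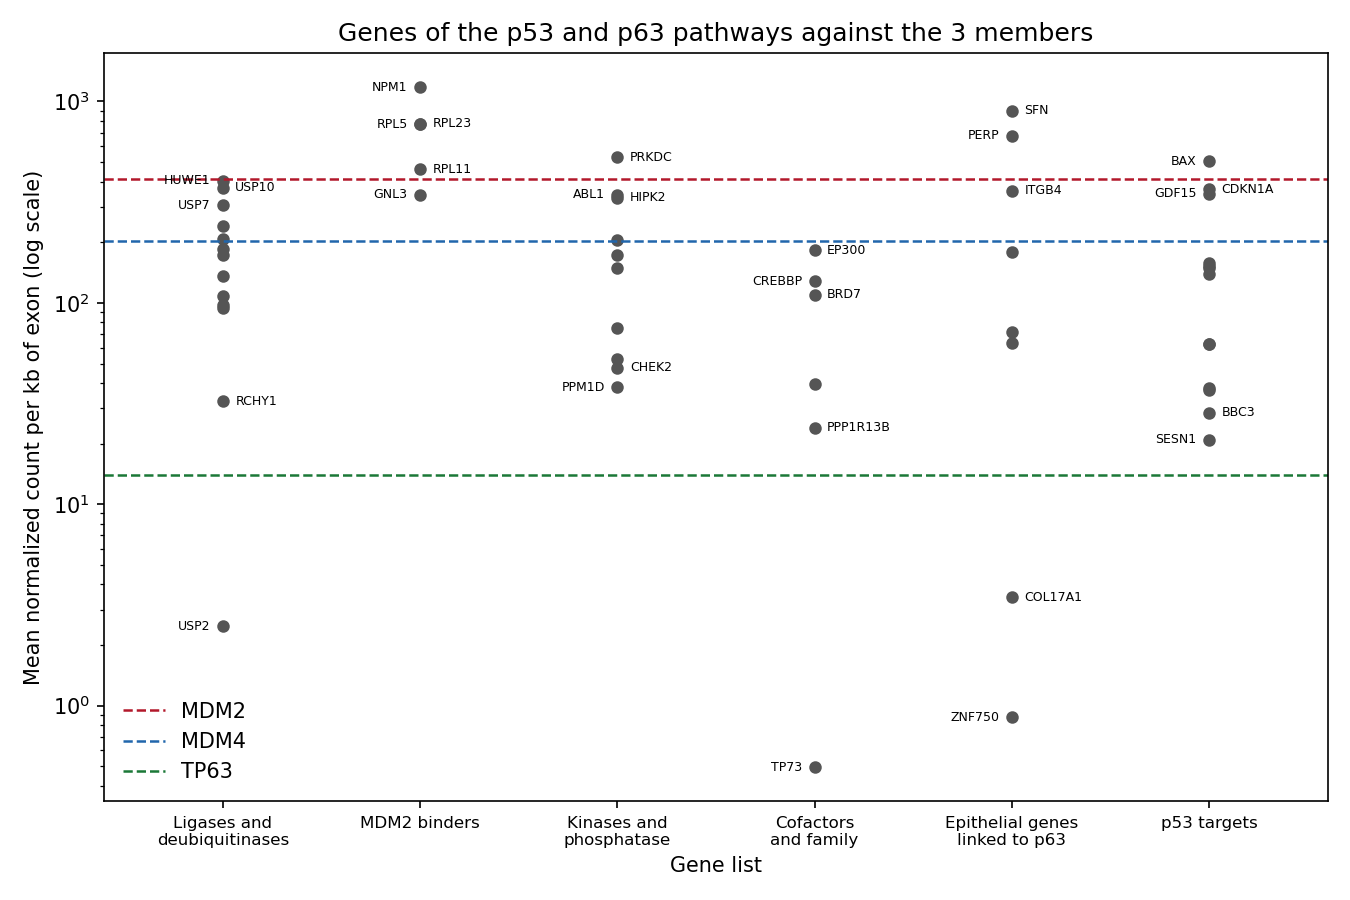
The authors' mean normalized count per kb of merged exon (y axis, log scale, all 12 libraries pooled) for the genes of 6 pathway lists (x axis), 1 point per gene and names at the 3 highest and 2 lowest of each list, with dashed lines at the levels of MDM2, MDM4 and TP63. The points of MDM2 binders lie at 344 to 1180 per kb, around or above MDM2, while TP73 (0.495 per kb) and ZNF750 (0.877 per kb) lie far below TP63.

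YTHDC1 reads m6A, which is placed mainly at GGACT and related sites, so this motif was counted on the sense strand of the exons. TP63 had 10 matches, or 1.34 per kb, which exceeded 76.2% of the 21798 genes. MDM2 had 7 matches, 0.843 per kb, above 49.3% of genes, and MDM4 had 6 matches, 0.545 per kb, above 30.7%. The median over all genes was 0.854 per kb. Over the 14100 protein-coding genes it was 0.925 per kb, with quartiles of 0.631 and 1.29. Against these, MDM4 lay below the lower quartile, MDM2 below the median and TP63 above the upper quartile. TP63, the lowest of the 3 genes in level, thus had the highest motif density, while MDM2 stood above MDM4 in both.

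Along the longest transcript most matches, by count, lay in different parts of the members. In TP63, 4 of 6 matches were in the coding sequence, 1.96 per kb, and 2 in the 3′ untranslated region, 0.721 per kb. In MDM2 and MDM4 most matches were in the 3′ untranslated region, 6 of 7 and 4 of 5, with 1 each in the coding sequence. The 3′ untranslated region is also the longest part of both transcripts. Per kb, MDM2 had 0.669 in the coding sequence and 1.05 in the 3′ untranslated region, and MDM4 had 0.679 and 0.474. MDM4 was thus denser in its coding sequence, as was TP63, though on 1 match. None of the 3 transcripts had a match within 200 bases of the end of the stop codon, the region where m6A is often found. Only GGACT was searched, so related sites that can carry m6A may lie in that region. Counted from the end of the stop codon, the closest match lay at position -357 in TP63, -1128 in MDM2 and -618 in MDM4. These sites are shown with 8 bases on each side and the motif in capitals, to place the GGACT nearest to each stop codon (sense strand, transcripts of GENCODE release 44 on GRCh37):

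TP63: tcatgtctGGACTatttcacg
MDM2: gaatcatcGGACTcaggtaca
MDM4: gacctggaGGACTctaagtcc

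**Figure D4:**
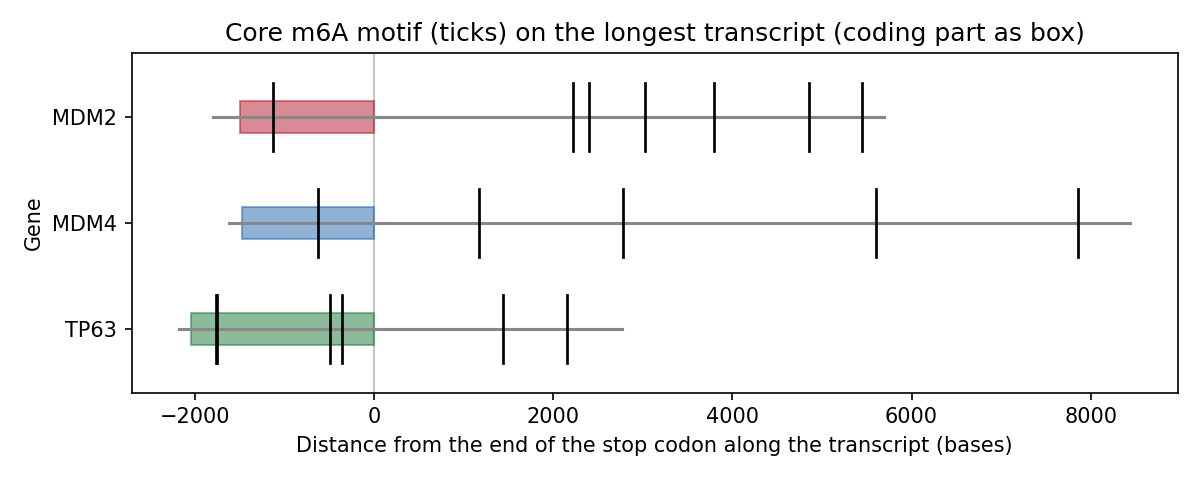
Positions of the core m6A motif (vertical ticks) along the longest annotated transcript of each gene by distance from the end of the stop codon in bases (x axis), with the coding sequence as a box and untranslated regions as lines. TP63 has 4 of its 6 ticks within the box, while MDM2 has 6 of 7 and MDM4 has 4 of 5 to the right of it.

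A motif match is not a methylated site, and methylation was not measured in these libraries. Whether the levels of TP63, MDM2 or MDM4 differed between siYTHDC1 and siSCR cannot be read from a mean over both groups, and the depletion of YTHDC1 itself cannot be checked with it.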

How the data were processed

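Total RNA was sequenced in 12 A549 libraries, 6 siYTHDC1 and 6 siSCR, grouped by their labels. After rRNA removal and a stranded library kit, the authors used STAR for alignment to hg19 and HTSeq for gene counts on a GENCODE release earlier than the one used here for lengths, and their DESeq2 model carried a term for the batch of sequencing. Whether counting used strand is not given in the sources used here. The deposited table holds 1 row per gene. Its signal column, as deposited by the authors, averages size-factor-normalized counts across the 12 libraries and is not scaled to length. A further 5 columns hold the authors' own comparison of the groups (fold change, its error, statistic, p-value and adjusted p-value) and were not used, so no group comparison, test, replicate error or depth per library is given. No library can be left out of a pooled mean.

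Of the gene IDs, 21798 (96.6%) matched GENCODE release 44 mapped to GRCh37 without version numbers. Lengths are unions of exons. Percentiles are shares of genes with a lower value. Of each of 6 lists the 3 highest, the 2 lowest and absent genes were named, and 1 gene first listed is not reported here. Members and lists were chosen with earlier results of these data known, and the rule for paired half-sites after the MDM2 sequence was seen. Alternatives were other lengths, other gene backgrounds and the longest transcript, and were run for the members only. Protein sequences were not analysed here. The functions for lengths, percentiles and motifs were tested on simulated data. Python 3.11.15, numpy 2.4.6 and matplotlib 3.10.9 were used.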

Additional observations from a re-analysis of the deposited data

How the results depend on the processing

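The alternatives change only the length, the sequence searched or the set of genes compared. Summing all rows of a symbol could not change a mean normalized count, since each of the 3 genes has 1 row. The levels per kb of TP63, MDM2 and MDM4 were 21.0, 457 and 222 with the longest transcript length, and 59.3, 3670 and 635 with the median transcript length. Percentiles of the unscaled level were 35.8, 96.8 and 93.9 among genes with a mean of at least 10, and 30.5, 96.4 and 93.1 among protein-coding genes. Percentiles of the level per kb were 38.7, 94.1 and 84.6 with the longest transcript length, and 25.8, 94.0 and 83.7 among protein-coding genes. The density of GGACT was 1.21, 0.935 and 0.498 per kb on the longest transcript. Within each measure the order of the 3 genes was the same under each of these settings. No paired analysis was possible because the values are means over all libraries. For the same reason no library was left out and no counting error is known.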
